A study of Mus musculus with 6 samples.

Results

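Smooth muscle contractile genes encode the actin and myosin filaments that shorten smooth muscle cells, and the proteins that dress those filaments. The 10 genes described here were chosen by name, as rows of the deposited count table: Acta2, Actg2, Tagln, Cnn1, Cald1, Tpm1, Tpm2, Lmod1, Myh11 and Myl9. All 10 were found among the 35976 genes of the table, and all 10 passed the filter on low counts, which left 13761 genes for testing. They were measured in mouse embryonic chondrocytes, the matrix-producing cells of cartilage, isolated at day 18.5 from the articular cartilage of hind limbs on a C57BL/6 x 129S4/SvJae background. All cells were grown on tissue culture plastic for 16 population doublings in serum-containing medium with doxycycline at 2 µg/ml, which switched on an H3.3 histone transgene. In the H3K9M group (replicates 1, 3 and 5) the encoded H3.3 had methionine in place of lysine 9, and the labels describe H3K9 methylation as suppressed. In the H3WT group (replicates 1, 2 and 4) it was wild-type H3.3, so both groups carried a transgene and received doxycycline, and no uninduced cells were compared. The labels do not name the cell type that expressed the transgene or say whether replicates were separate animals or cultures, so p-values measure the spread between these libraries, which may be technical.

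In smooth muscle, myosin heads pull on actin thin filaments when the regulatory light chain is phosphorylated, while tropomyosin, caldesmon and calponin lie along the thin filament and modulate the pull. Many of these genes are switched on by serum response factor (SRF), which binds a DNA element named the CArG box, together with the coactivators myocardin or the MRTF proteins. The same genes appear in fibroblasts that turn into contractile myofibroblasts, and in chondrocytes that flatten and form stress fibres during culture on stiff plastic. The comparison asked whether contractile gene levels differed when H3K9 methylation was suppressed during expansion.

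Gene positions are those of RefSeq on GRCm38 (mm10), the build named in the submitters' processing notes. The actin genes Acta2 and Actg2 lie at chr19:34240336-34255585 and chr6:83512909-83536251. The thin filament partners lie at chr9:45929628-45936058 (Tagln), chr9:22099221-22109221 (Cnn1), chr6:34598495-34775469 (Cald1), chr9:67022590-67049672 (Tpm1), chr4:43513726-43523583 (Tpm2) and chr1:135324813-135368065 (Lmod1). The myosin genes lie at chr16:14194527-14292188 (Myh11) and chr2:156775408-156781657 (Myl9). Exons of 9 of the 10 genes overlapped no exon of another gene in GENCODE M21. Tagln was the exception, since its exons overlapped those of Pcsk7 and Gm48529, both on the opposite strand. The larger of these overlaps with a single gene covered 1241 of its 1988 exonic bases. The strand setting of the counting and its handling of reads in such overlaps are not stated. Tagln reads in the overlaps could therefore have been left uncounted, or some Tagln counts could belong to these genes. Pcsk7 itself averaged 48.5 CPM (counts scaled to a common library size with TMM factors) in H3K9M and 51.1 CPM in H3WT.

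The sequences of the 2 smooth muscle actins are shown because the results set these genes side by side and their reads must be told apart. Their coding sequences differ by 3 bases in length and are 83.8% identical when lined up from the last codon. The stretch below is coding bases 61 to 120 of Acta2 and 58 to 117 of Actg2, from GENCODE M21, with the 11 bases that differ in capitals.
Acta2: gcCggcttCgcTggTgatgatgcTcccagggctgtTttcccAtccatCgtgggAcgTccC
Actg2: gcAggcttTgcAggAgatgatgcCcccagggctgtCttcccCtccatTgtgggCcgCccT
The longest run of identical bases between transcripts of the pair was 29, so a read longer than that spans at least 1 difference. The read length is not given in the sources used here. Runs shared by Acta2 with the non-muscle actins were longer, at 47 bases with Actb and 56 with Actg1. Myl9 shared runs of 35 bases with Myl12a and with Myl12b, and Tpm2 a run of 37 with Tpm1.

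CArG boxes, the element that SRF binds, are shown next. Whether they relate to the shared variation across libraries described below was not tested. RefSeq start regions (GRCm38.p6) were given for 7 of the 10 genes, in 8 windows. Tagln, Actg2 and Myh11 had no window and were not searched. The 250 bases before each start were searched for CCNNNNNNGG with A or T at all 6 central positions, or at 5 of 6. The pattern reads the same on both strands. The strict form was found for 1 of the 7 genes (Myl9) and the looser form for 2 (Acta2 and Myl9). Of 32851 such windows over all genes, 1.47% held the strict form and 8.59% the looser or strict form. Each match is printed 5′ to 3′ on the gene's strand with 10 bases on either side and the match in capitals.
Acta2, 84 bases before the start, chr19:34255438-34255467, minus strand: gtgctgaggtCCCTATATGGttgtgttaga
Acta2, 34 bases before the start, chr19:34255388-34255417, minus strand: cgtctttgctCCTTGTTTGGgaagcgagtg
Myl9, 161 bases before the start, chr2:156775293-156775322, plus strand: caagcagaggCCTAATAAGGccgggctggc
Myl9, 99 bases before the start, chr2:156775355-156775384, plus strand: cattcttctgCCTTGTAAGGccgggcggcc
Of these, CCTAATAAGG is the strict form. Both Acta2 matches lie upstream of the start used here but inside the RefSeq gene span given above. GENCODE M21 also draws an Acta2 exon over both. They are therefore upstream of this start only, not of the whole gene. A match describes letters only, and no binding was measured.

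Libraries held between 15113675 and 19606082 counts. On the genes outside every list used here, principal component 1 (35.4% of the variance) mixed the groups. H3K9M replicate 3 scored 49 and H3WT replicate 2 scored 50.5, against -55.3 and -50.6 for H3WT replicates 1 and 4. Principal component 2 (28.6%) separated the groups, at 19.6 to 40.3 for H3K9M and -69.5 to -13.1 for H3WT, with H3K9M replicate 3 and H3WT replicate 2 at its 2 ends. The cartilage labels were checked on Col2a1, the main collagen of cartilage, which had 4971 to 8421 CPM in H3K9M and 4913 to 14110.3 CPM in H3WT. Sox9 had 114 to 181 and 145 to 285 CPM in the same order, and Acan 172 to 470 and 136 to 722 CPM. H3f3a, an endogenous H3.3 gene, averaged 801 CPM with H3K9M and 840.0 CPM with H3WT, and H3f3b 259 and 249 CPM. The sources used here do not say where reads of the transgene were counted.

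The contractile genes ranged from abundant, as for Acta2, to scarce, as for Myh11, and no difference between the groups passed the test. Together the 10 genes took 0.923%, 0.405% and 0.596% of all counts in H3K9M (replicates 1, 3 and 5), while in the H3WT libraries (replicates 1, 2 and 4) they took 0.911%, 0.427% and 0.987%. The mean share was 0.641% ± 0.262 in H3K9M and 0.775% ± 0.304 in H3WT (SD, n = 3 each; exact permutation test, two-sided, p = 0.6, where 0.1 is the smallest p that 3 against 3 allows). With edgeR's quasi-likelihood test, 0 of the 10 genes had an adjusted p under 0.05 (Benjamini-Hochberg), against 0% of all 13761 genes. DESeq2 and limma-voom also called 0 of the 10, and over all genes they called 365 and 0. At an unadjusted p under 0.05 there were also 0 of 10, against 12.2% of all genes. The groups overlapped for each of the 10 genes, whereas 19.4% of all genes had groups that did not overlap. Fitted log2 fold changes (H3K9M minus H3WT) lay below 0 for 9 of the 10 genes, against 50.4% of all genes, with a median of -0.42 against -0.003 over all genes. The signs are not independent, because the 10 genes varied together across the libraries, so no decrease was established. Bulk libraries also cannot tell the number of contractile cells apart from contractile RNA per cell.

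**Figure D1:**
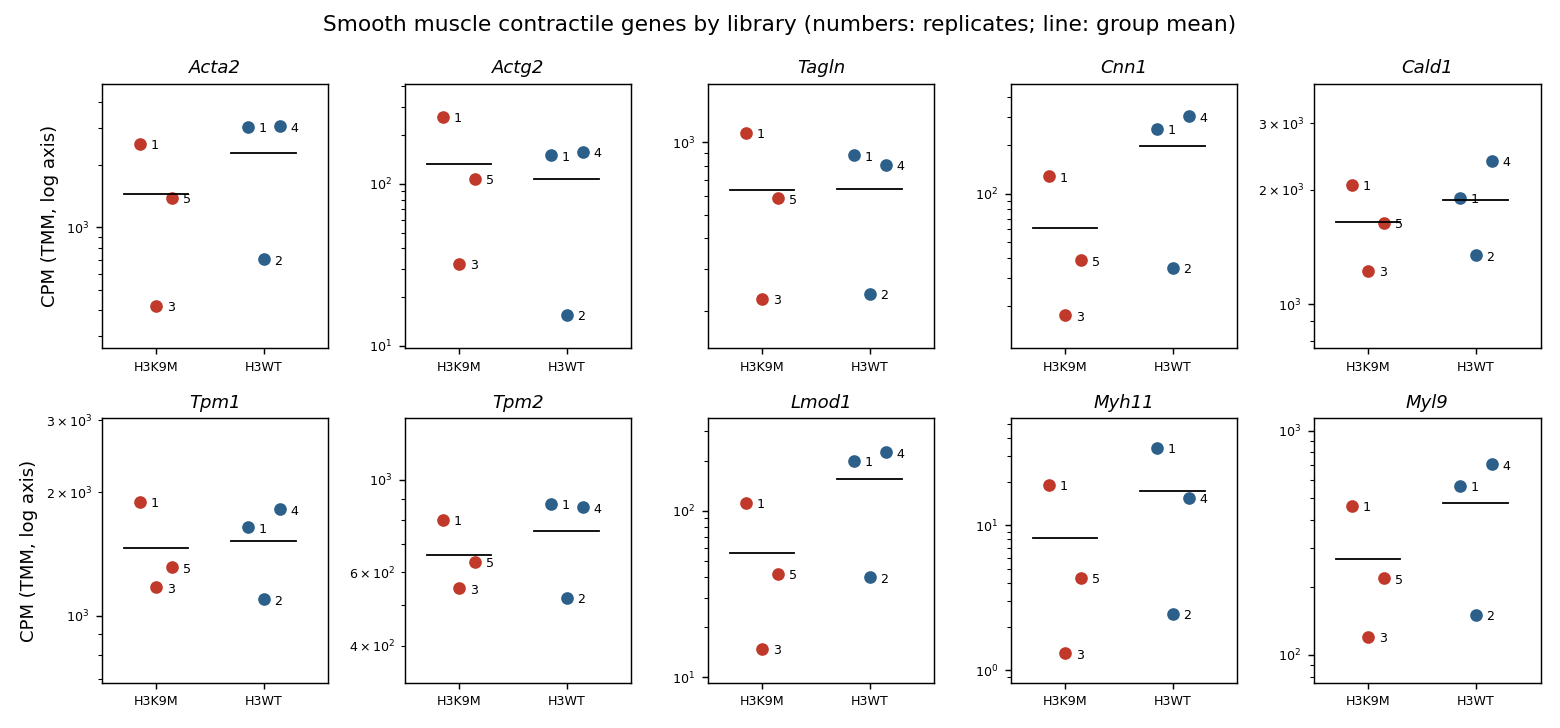
CPM on a log axis for each of the 10 contractile genes in each library, with H3K9M in red, H3WT in blue, replicate numbers beside the points and a line at the group mean. In every panel H3K9M replicate 3 and H3WT replicate 2 are the lowest of their groups and the groups overlap.

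The wide spread was shared by the genes and ran within both groups. In all 10 genes H3K9M replicate 3 and H3WT replicate 2 both lay below the other 4 libraries. The share of all genes with that order was not counted, so the order cannot be called particular to the set. Flna, Vcl and Col1a1, outside the set, had the same order, whereas Dcn, Lum and Pdgfra were highest in those libraries. These genes were picked after their values were seen. H3K9M replicate 1 was the highest of its group in all 10, and the top of the H3WT group was replicate 4 in 7 genes and replicate 1 in 3. The genes differed in how steeply they varied. The highest of the 6 libraries exceeded the lowest 26.3-fold for Myh11, 17.3-fold for Cnn1, 16.8-fold for Actg2 and 15.1-fold for Lmod1. The ratio was 7.23 for Acta2, 5.9 for Myl9 and 4.85 for Tagln. It was 1.95 for Cald1, 1.73 for Tpm1 and 1.68 for Tpm2, near the median of 1.7 over the 12068 tested genes that reached 10 counts in all 6 libraries. Of those 12068 genes, 0.348% varied as much as Myh11 or more and 6.99% as much as Tagln or more, against 51.4% for Tpm2. Cald1, Tpm1 and Tpm2 are also transcribed as non-muscle isoforms in many cell types, and gene counts do not separate the isoforms.

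**Figure D2:**
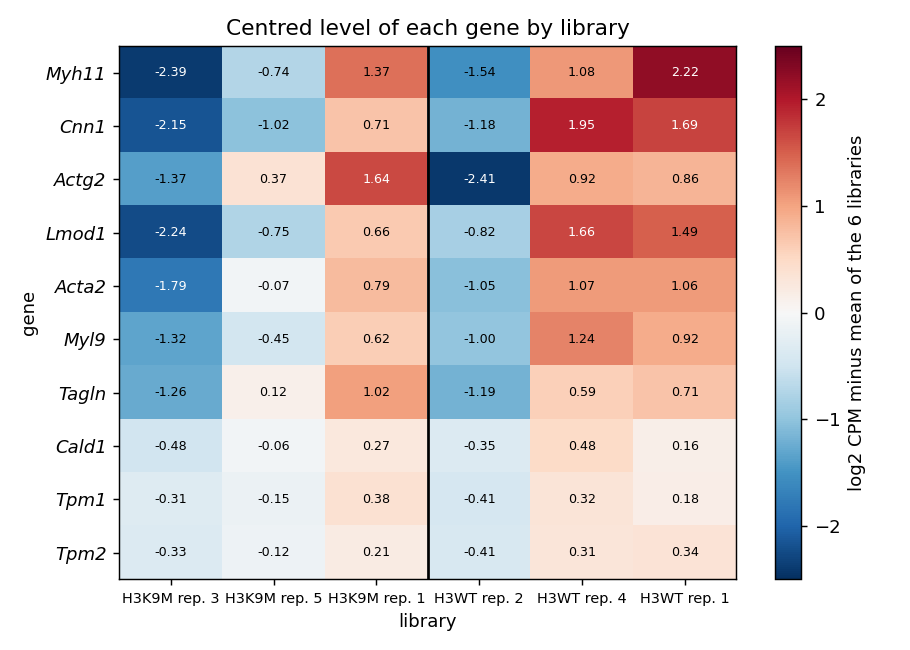
Log2 CPM of each gene minus its mean over the 6 libraries, with genes ordered by their spread and the groups divided by a line. Values in H3K9M replicate 3 and H3WT replicate 2 are negative in all 10 rows, from -2.39 for Myh11 to -0.31 for Tpm1 in the former and from -2.41 for Actg2 to -0.35 for Cald1 in the latter.

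Among the actins, Acta2 encodes smooth muscle alpha-actin, the actin that also marks myofibroblasts. Acta2 had 2515, 422 and 1384 CPM in the H3K9M libraries (replicates 1, 3 and 5) and 3029, 703 and 3053 CPM in the H3WT libraries (replicates 1, 2 and 4). The H3WT libraries held both the highest values and the second-lowest, so the groups overlapped. The fitted difference was -0.65 on the log2 scale with an SE of 0.77 (adjusted p 0.792 in edgeR). Actg2 encodes smooth muscle gamma-actin, the actin of visceral smooth muscle such as the gut wall. Actg2 had 260.4, 32 and 107 CPM in the H3K9M libraries and 151, 15.5 and 158 CPM in the H3WT libraries, in the same order of replicates. It was the only one of the 10 genes with a fitted log2 fold change above 0, at 0.30 (SE 1.00, adjusted p 0.936), and the sign turned without H3K9M replicate 1 (-0.63) or without H3WT replicate 2 (-0.20).

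Of the proteins that bind the thin filament, transgelin (Tagln) is an actin-bundling protein of the calponin family. Tagln had 1092, 225 and 586 CPM in the H3K9M libraries and 882, 235 and 807 CPM in the H3WT libraries. The means were 634 ± 435 and 641 ± 354 CPM (SD, n = 3 each), and edgeR fitted a difference of -0.02 on the log2 scale (SE 0.69, adjusted p 0.995). Calponin 1 (Cnn1) inhibits the myosin ATPase on the thin filament and is used as a marker of differentiated smooth muscle. Cnn1 had 128, 17.5 and 38.5 CPM in the H3K9M libraries and 254, 34.6 and 303 CPM in the H3WT libraries. Its fitted difference was the largest of the 10 genes, at -1.68 on the log2 scale (SE 0.99, adjusted p 0.537), yet H3WT replicate 2 lay below 2 of the H3K9M libraries. Leiomodin 1 (Lmod1) nucleates actin filaments in smooth muscle. Lmod1 had 111, 14.8 and 41.9 CPM in the H3K9M libraries and 199, 39.9 and 224 CPM in the H3WT libraries, and edgeR fitted a difference of -1.47 on the log2 scale (SE 0.89, adjusted p 0.55). It repeated the pattern of Cnn1, with 2 H3WT libraries above all H3K9M libraries and H3WT replicate 2 among them.

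Tropomyosins wind along actin, and caldesmon (Cald1) binds actin, tropomyosin and myosin. Cald1 had 2063, 1225 and 1638 CPM in the H3K9M libraries and 1909, 1344 and 2383 CPM in the H3WT libraries (fitted difference -0.19 on the log2 scale with an SE of 0.26, edgeR adjusted p 0.816). Tpm1 had 1896, 1171 and 1311 CPM against 1644, 1095 and 1818 CPM (fitted difference -0.06 on the log2 scale with an SE of 0.25, edgeR adjusted p 0.954). Tpm2 had 800.5, 549.8 and 636 CPM against 876, 522 and 858 CPM (fitted difference -0.18 on the log2 scale with an SE of 0.23, edgeR adjusted p 0.801). These 3 genes had the smallest standard errors of the 10, and their differences were smaller than their spread within either group.

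The thick filament is built from the smooth muscle myosin heavy chain (Myh11), held to be the most specific marker of smooth muscle, and carries the regulatory light chain encoded by Myl9. Myh11 had 19, 1.3 and 4.34 CPM in the H3K9M libraries and 34.4, 2.44 and 15.5 CPM in the H3WT libraries. These values rest on as few as 27 counts in H3K9M replicate 3 and 47 in H3WT replicate 2, against 612 in H3WT replicate 1. The log2 fold change was -1.10 with an SE of 1.18 (adjusted p 0.764, edgeR). Myl9 had 461, 120.0 and 219.6 CPM in the H3K9M libraries and 568, 151 and 708 CPM in the H3WT libraries (fitted difference -0.83 on the log2 scale with an SE of 0.69, edgeR adjusted p 0.676). Myl9 followed the mean profile of the 10 genes most closely, with a root mean square difference of 0.148 on the log2 scale over the 6 libraries, and Myh11 least closely, at 0.759.

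Levels of different genes were compared per kilobase of annotated exons (GENCODE M21). Acta2 was the highest of the 10 on average over the 6 libraries, at 843 CPM per kb, and Myh11 the lowest, at 1.69 CPM per kb. Between them stood Tagln (321), Myl9 (319), Tpm2 (243), Tpm1 (229.6), Cald1 (146), Actg2 (77.5), Cnn1 (47.3) and Lmod1 (26.7 CPM per kb). Acta2 ranged over 192 to 1145 CPM per kb in H3K9M and 320 to 1390.2 in H3WT, so it did not differ beyond its spread from Tagln, at 113 to 549 and 118 to 443 CPM per kb, although Acta2 lay above Tagln within each library. Tagln, Myl9, Tpm2, Tpm1 and Cald1 likewise overlapped their neighbours in this order, and the order among them depended on the length used. Per kb of the longest transcript, Tpm1 moved from the fifth place to the second with 515 CPM per kb, and Cald1 from the sixth to the fourth with 368. Acta2 stayed the first, and Actg2, Cnn1, Lmod1 and Myh11 stayed the last 4 in the same order.

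**Figure D3:**
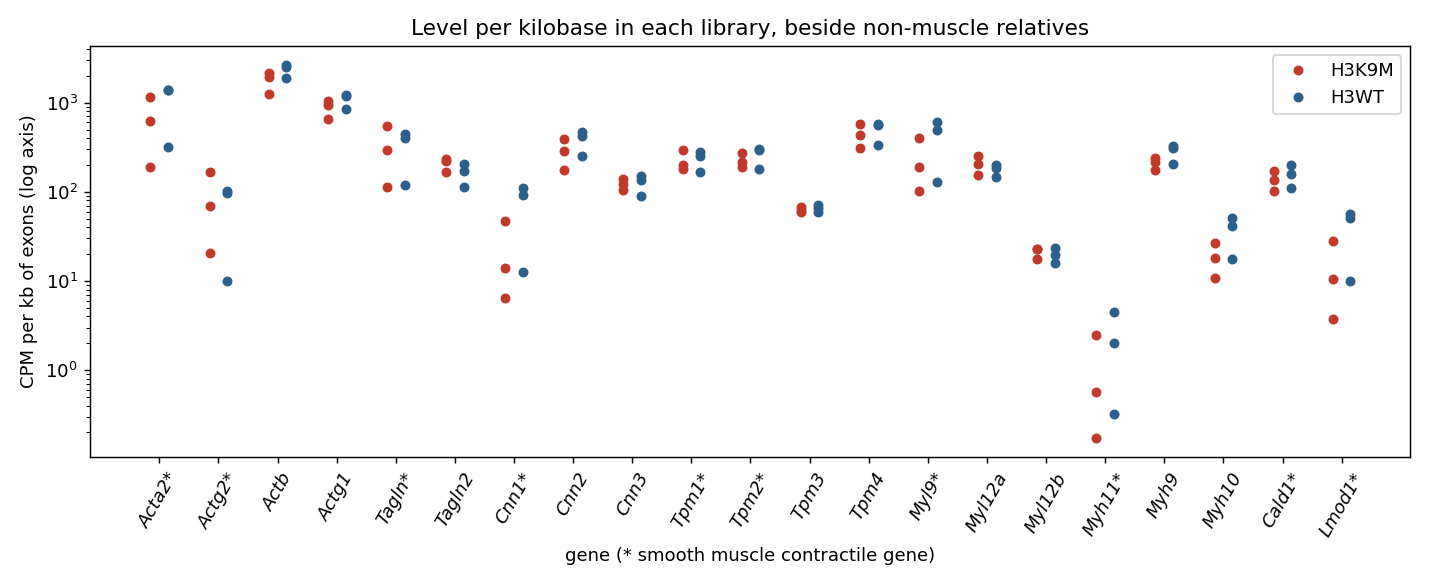
CPM per kilobase of exons on a log axis for the contractile genes (asterisk) and their non-muscle relatives, with 1 point per library and H3K9M in red beside H3WT in blue. The non-muscle actins Actb and Actg1 span 655 to 2674 CPM per kb, and Myh11 spans 0.17 to 4.52.

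Non-muscle relatives of the same families were examined from a list of 18 genes, of which 16 passed the filter. Cytoplasmic beta-actin (Actb) had 1263 to 2137 CPM per kb in H3K9M and 1891 to 2674 in H3WT, above Acta2 in all 6 libraries. The non-muscle heavy chain gene Myh9 had 175 to 238 and 203 to 329.6 CPM per kb, which placed it above Myh11 in all 6. The spread was narrow where Acta2 and Myh11 varied widely, since the highest library exceeded the lowest 2.12-fold for Actb, 1.85-fold for Actg1 and 1.88-fold for Myh9. The order of libraries was nonetheless alike. H3K9M replicate 3 and H3WT replicate 2 lay below all others for Actb (3383 and 5067 CPM), Actg1 (1741 and 2266 CPM) and Myh9 (2265 and 2631 CPM). Myl12b went the other way, with its highest values in those libraries (74.4 and 76.6 CPM). Myh10, another non-muscle heavy chain gene, varied 4.73-fold, and Cnn2, a calponin of non-muscle cells, 2.65-fold. None of the 16 genes had an adjusted p under 0.05, and 0 had an unadjusted p under 0.05 in edgeR's test. Their median log2 fold change was -0.10, with 10 below 0. The striated muscle actin Acta1 had 32.8, 33.2 and 6 CPM in the H3K9M libraries and 26.2, 3.27 and 24 CPM in the H3WT libraries, and the cardiac actin Actc1 had too few counts to be tested.

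Other parts of the smooth muscle contraction machinery were taken from a list of 29 genes, of which 27 passed the filter. With edgeR 0 had an adjusted p under 0.05. Groups did not overlap for 5 genes lower in H3K9M, against 8.68% of all genes. Of the 27, 22 had a log2 fold change below 0, with a median of -0.36, and 8 (29.6%) were lower in H3K9M at an unadjusted p under 0.05, against 5.77% of all genes. One gene of the list was higher at that level, against 6.42% of all genes. The count of 8 moved with single libraries, and so did the share of all genes lower at that level. It was 2 when H3WT replicate 4 was dropped (3.65% of all genes) and 13 when H3WT replicate 2 was (8% of all genes). Dropping H3K9M replicate 3 gave 3 (4.43%), dropping H3K9M replicate 5 gave 4 (4.63%), dropping H3WT replicate 1 gave 5 (3.86%) and dropping H3K9M replicate 1 gave 7 (4.14%). With H3K9M replicate 3 and H3WT replicate 2 both left out it was 13, where 9.29% of all genes were lower at that level.

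The smallest p in this list belonged to Smtn, which encodes smoothelin, a protein of contractile smooth muscle cells. Smtn had 179, 181 and 186 CPM in the H3K9M libraries and 288, 289 and 214 CPM in the H3WT libraries, so the groups did not overlap (fitted difference -0.53 on the log2 scale with an SE of 0.14, edgeR adjusted p 0.239). Unlike the 10 contractile genes, it showed no dip in H3K9M replicate 3 or H3WT replicate 2. Ppp1r12a encodes the targeting subunit of myosin phosphatase, which ends contraction. It had 116, 108 and 130.1 CPM against 210.4, 129 and 212 CPM (fitted difference -0.64 on the log2 scale with an SE of 0.20, edgeR adjusted p 0.28). Itga8, an integrin subunit of smooth muscle and mesenchyme, had 6.1, 2.71 and 1.79 CPM against 18, 5.03 and 22 CPM (fitted difference -2.10 on the log2 scale with an SE of 0.65, edgeR adjusted p 0.286). Others among the 8 were Cacna1c, Rock2, Sorbs2 and Ppp1r14a, named after their values were seen. Mylk, the kinase that phosphorylates the light chain, had 33.7, 12.6 and 17.6 CPM against 31.8, 26.7 and 34.1 CPM (adjusted p 0.56).

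**Figure D4:**
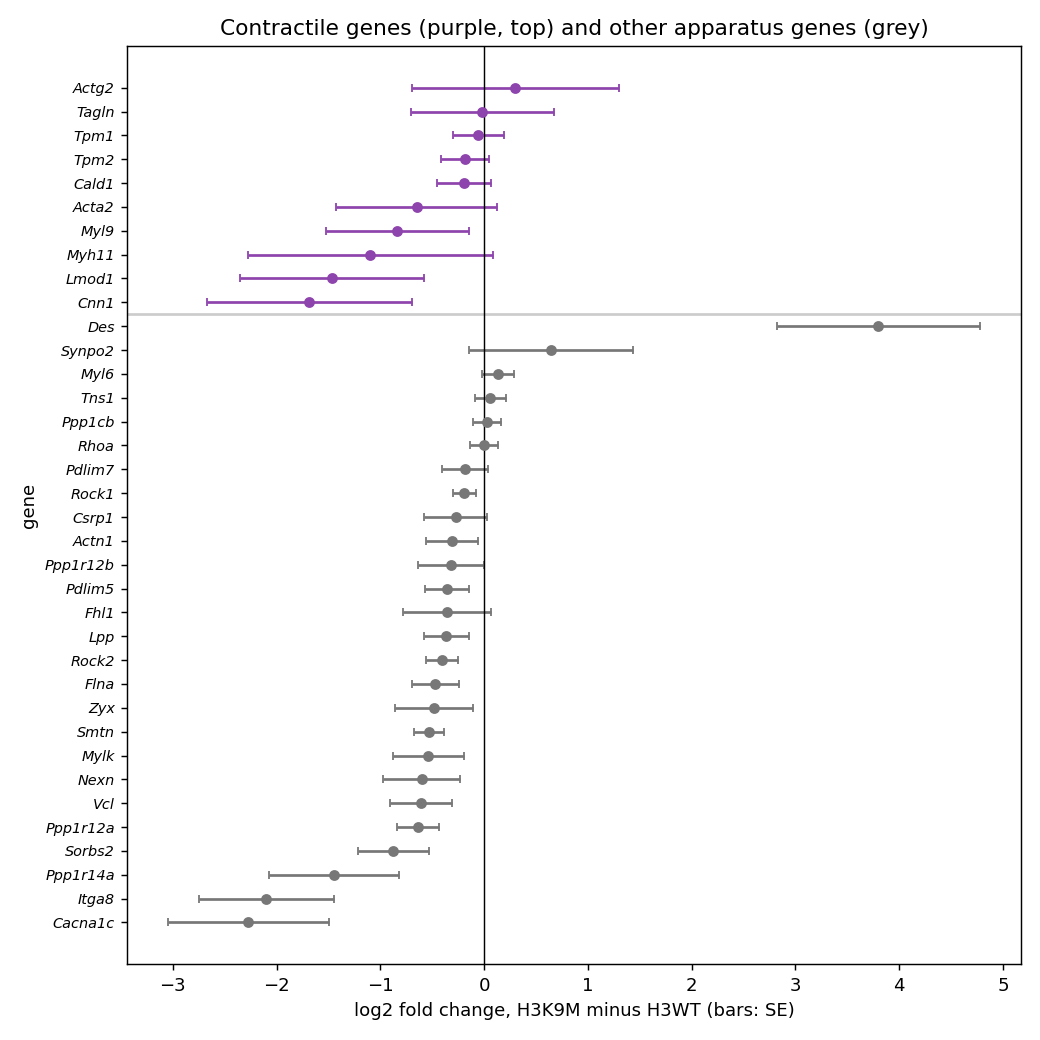
Log2 fold change, H3K9M minus H3WT, with bars of 1 SE, for the 10 contractile genes in purple and tested genes of the wider machinery in grey. Estimates run from -1.68 (Cnn1) to 0.30 (Actg2) in the former and from -2.27 (Cacna1c) to 3.80 (Des) in the latter, and none passed the test.

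The gene of the list that was higher in H3K9M was Des, which encodes desmin, an intermediate filament protein of smooth and striated muscle. Des had 81, 98 and 8.78 CPM in the H3K9M libraries and 4.88, 6.8 and 1.71 CPM in the H3WT libraries (fitted difference 3.80 on the log2 scale with an SE of 0.98, edgeR adjusted p 0.255). The summed level of skeletal muscle markers had the same order of libraries, though single markers such as Tnnt1 and Tnnc1 did not. Of 15 such markers 7 were tested, all 7 with a log2 fold change above 0, where 50.4% of all genes lay below 0, and 4 higher at an unadjusted p under 0.05, against 6.42% of all genes. Their summed level was 15 to 122 CPM in H3K9M and 4.54 to 6.54 CPM in H3WT. Myod1, the myogenic factor, had 19.5, 57 and 4.29 CPM in the H3K9M libraries and 0, 1.04 and 0 CPM in the H3WT libraries, while the satellite cell genes Pax7 and Myf5 had 0 counts in all 6 libraries. The part of these markers in the values of Des or of the contractile genes was not tested. The order of the sum within H3K9M (highest in replicate 3) differed from that of the contractile genes, which were lowest there.

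Regulators of SRF were examined from a list of 16 symbols, 14 of them in the table and 12 tested. None had an adjusted p under 0.05, 10 had a log2 fold change below 0 and the median was -0.22. At an unadjusted p under 0.05, 2 (16.7%) were lower in H3K9M, against 5.77% of all genes, and 0 higher, against 6.42%. Mkl1 encodes the SRF coactivator MRTF-A, which moves to the nucleus when actin polymerises. Mkl1 had 103, 96.5 and 120.2 CPM in the H3K9M libraries and 175, 107 and 162 CPM in the H3WT libraries (fitted difference -0.47 on the log2 scale with an SE of 0.19, edgeR adjusted p 0.383). The other was Prkg1, the cGMP-dependent kinase that relaxes smooth muscle, with 23.9, 26.1 and 36.9 CPM against 39.1, 38.2 and 41.8 CPM (fitted difference -0.45 on the log2 scale with an SE of 0.19, edgeR adjusted p 0.397). Srf itself had 120.3, 73.6 and 117 CPM against 142, 101 and 151 CPM (adjusted p 0.582), with the lowest value of each group in the same libraries as the contractile genes. Myocd, the coactivator that is most restricted to muscle, was scarce, at 0 counts in H3K9M replicate 3 and 18 to 61 counts in the others, with 1.21, 0 and 1.89 CPM against 2.81, 3.17 and 3.12 CPM (adjusted p 0.617), and its groups did not overlap. Srf, Myocd and Mylk are given here for their roles and were picked after their values were seen.

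Markers of cells other than chondrocytes were compared in the same libraries. Of 11 genes of vascular mural cells, the pericytes and smooth muscle cells around vessels, 9 were tested, and their summed level was 631 to 918 CPM in H3K9M and 703 to 833 CPM in H3WT. Higd1b, a pericyte gene, had 0 counts in all 6 libraries and Kcnj8 had 0 in the 3 H3K9M libraries and in H3WT replicate 2. Others of the list were detected, and the sum was carried by Pdgfrb (218 to 402 CPM) and Cspg4 (221 to 520 CPM). Rgs5 had 12.7 to 15.5 CPM in H3K9M and 4.94 to 12.6 CPM in H3WT. Mcam was low in H3K9M replicate 3 and H3WT replicate 2 (1.98 and 3.48 CPM), as the contractile genes were. These mural genes were also named after their values were seen. Endothelial markers (2 tested of 8) summed to at most 22.5 CPM in a library, a sum carried by Erg. Cdh5, Tie1 and Emcn had 0 counts in all 6 libraries. Macrophage or blood markers (3 tested of 9) summed to at most 16.2 CPM. Of 10 fibroblast markers, all tested, the summed level was 34012 to 47206 CPM in H3K9M and 23687 to 49446 CPM in H3WT, and this sum was carried by collagens and Fn1. Members of the list went different ways, as these genes, picked after their values were seen, show. Col1a1 had 4962 CPM in H3K9M replicate 3, 3685 CPM in H3WT replicate 2 and 11718 to 18928 CPM in the other 4. Dcn was instead highest in those 2 libraries, at 177 and 143 CPM, as were Lum (144 and 101 CPM) and Pdgfra (236 and 243 CPM). Fn1 was higher in H3K9M without overlap, at 16981 to 22113 CPM against 13783 to 14725 CPM, with an adjusted p of 0.382 in edgeR. Chondrocyte markers (10 tested of 12) summed to 6104, 6851 and 9870 CPM in the H3K9M libraries and to 6044, 16949 and 11714 CPM in the H3WT libraries, in the order given above. All 10 tested had a log2 fold change below 0 with a median of -1.06, against 50.4% of all genes below 0, and 2 were lower at an unadjusted p under 0.05, against 5.77% of all genes. This sum was carried by Col2a1, at 5521 CPM in H3K9M replicate 3 and 14110 CPM in H3WT replicate 2. H3WT replicate 2, low in every contractile gene, was thus the highest in the summed cartilage markers. H3K9M replicate 3 was low in contractile genes and near the lower end of that sum. Single markers differed, since H3K9M replicate 3 had the highest Col11a2 of its group (113 CPM) and Comp was highest in H3WT replicate 4 (802 CPM). The part of the cell makeup in the contractile values was not tested.

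The 5 genes outside the set whose centred profile lay closest to the mean profile of the 10 were Mfap5, Ror1, Fbln5, Col12a1 and Serpinf1. The measure was the root mean square difference of log2 CPM over the 6 libraries, which was 0.208 for Mfap5 and 0.26 for Serpinf1. Mfap5 and Fbln5 encode proteins of elastic fibres and their microfibrils, and Col12a1 a collagen that lies on the surface of collagen fibrils. Mfap5 had 39.5, 7.44 and 19.9 CPM in the H3K9M libraries and 56, 8.98 and 43.8 CPM in the H3WT libraries. Col12a1 had 1573, 501 and 1070.4 CPM against 2669, 828 and 2429.9 CPM. None of the 5 had an adjusted p under 0.05 in edgeR's test, and their log2 fold changes ran from -1.01 (Fbln5) to -0.71 (Mfap5).

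Because the 10 genes shared so much of their spread, ratios of pairs within a library were also compared, a choice made after the values were seen. A ratio of counts within a library does not depend on the scaling between libraries. Of the 45 pairs, 11 (24.4%) had ratios that did not overlap between the groups, against 18.9% of all pairs among 12068 genes, so the share was near the background. The smallest two-sided p of an exact permutation test was 0.1 for these ratios, which the 20 arrangements of 6 libraries set, so no ratio could pass. Actg2 took part in 5 of the 11 pairs, Tagln and Lmod1 in 4 each, Acta2 and Myl9 in 3 each, Cnn1 in 2 and Myh11 in 1, while Cald1, Tpm1 and Tpm2 took part in 0.

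The values of a few of these pairs, picked because they did not overlap, are given as a description of the libraries only. There were 2.3, 1.88 and 2.36 Acta2 counts per Tagln count in H3K9M and 3.44, 2.98 and 3.78 in H3WT. Acta2 counts per Actg2 count were 9.66, 13.2 and 12.9 in H3K9M and 20.1, 45.3 and 19.4 in H3WT. Against Lmod1 there were 22.6, 28.5 and 33 Acta2 counts per Lmod1 count in H3K9M and 15.2, 17.6 and 13.6 in H3WT. Actg2 counts per Lmod1 count were 2.34, 2.16 and 2.56 in H3K9M and 0.757, 0.389 and 0.703 in H3WT. The groups overlapped for Cnn1 against Lmod1, at 1.15, 1.18 and 0.918 Cnn1 counts per Lmod1 count in H3K9M and 1.27, 0.867 and 1.35 in H3WT. H3WT replicate 2 had the highest ratio of Acta2 to Actg2 and the lowest of Actg2 to Lmod1.

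**Figure D5:**
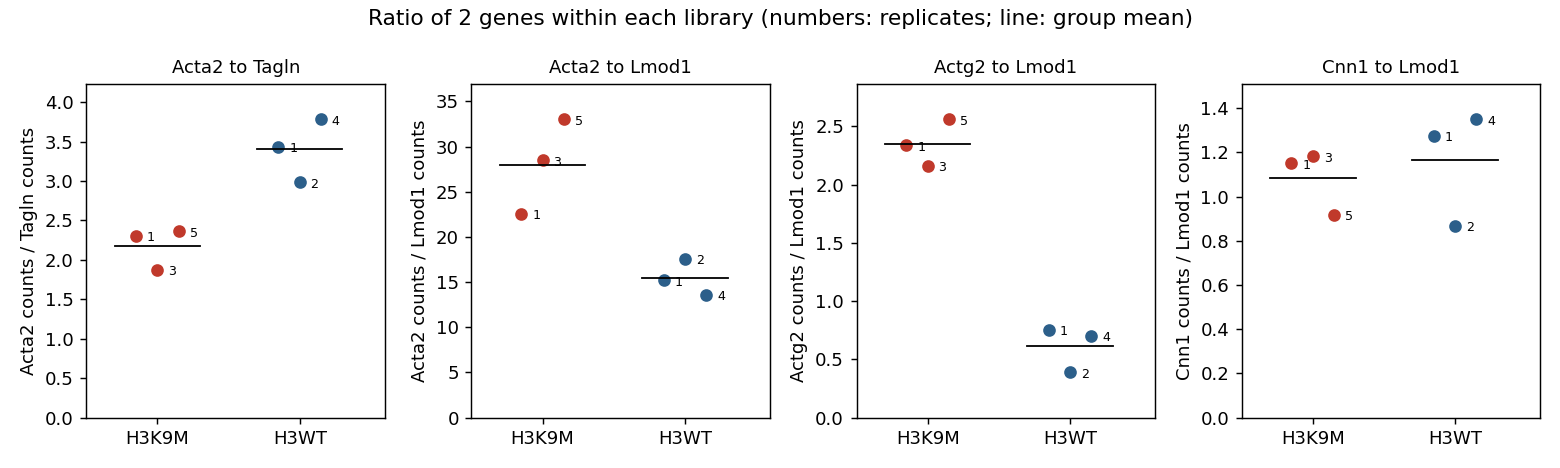
Ratio of the counts of 2 genes within each library, on linear axes that start at 0, with H3K9M in red, H3WT in blue, replicate numbers beside the points and a line at the group mean. Acta2 to Tagln, Acta2 to Lmod1 and Actg2 to Lmod1 do not overlap between the groups, and Cnn1 to Lmod1 does.

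Since H3K9M replicate 3 and H3WT replicate 2 stood apart on principal component 1, the comparison was repeated without both, an alternative chosen after the data were seen. Across all genes 302 then passed an adjusted p of 0.05 with edgeR, but 0 of the 10 contractile genes did, and their smallest adjusted p was 0.25. Their median log2 fold change was -0.44, with 8 below 0. At an unadjusted p under 0.05 there were 2 of 10, Acta2 and Lmod1, against 18.4% of all genes. Without H3K9M replicate 1 there were also 2, Cnn1 and Lmod1, against 8.48% of all genes, and without H3WT replicate 2 there was 1, Cnn1, against 17.1%. The median log2 fold change of the 10 genes was -0.99 without H3K9M replicate 1 and -0.13 without H3K9M replicate 3, the extremes over the 6 libraries left out in turn. The log2 fold change of Myh11 ran from -2.62 without H3K9M replicate 1 to -0.13 without H3WT replicate 1, and Cnn1 from -2.81 to -1.23, the former without H3K9M replicate 1 and the latter without H3K9M replicate 3 or H3WT replicate 4. Lmod1 ran from -2.44 to -1.0, and Acta2 from -1.32 to -0.20, both with their lowest value when H3K9M replicate 1 was dropped and their highest when H3K9M replicate 3 was. Myl9 ran from -1.48 without H3K9M replicate 1 to -0.43 without H3WT replicate 4, and Tpm2 from -0.38 without H3WT replicate 2 to -0.06 without H3K9M replicate 3. For the median of the 10, leaving out H3WT replicate 2 gave -0.74, H3WT replicate 1 gave -0.16 and H3WT replicate 4 gave -0.22, and between 6 and 10 of the 10 genes lay below 0 in these fits. Ratio pairs without overlap numbered 28 of 45 with both libraries left out, against 50.9% of all pairs. There were 27 of 45 without H3WT replicate 2, against 38.2%, and 21 of 45 without H3K9M replicate 1, against 26.9%. Each of these shares lay above that of all pairs, but pairs with a gene in common are not independent and no ratio was tested here.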

How the data were processed

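Polyadenylated RNA of 6 libraries was sequenced from Tecan Universal Plus libraries (per the labels' protocols). The authors' deposited table holds raw read counts per gene symbol, not normalized. HISAT2, featureCounts, DESeq2 and the build mm10 are named in the submitters' processing notes, without versions or settings. The annotation and strand setting are not given in the sources used here. Each of the 6 columns matched 1 sample title, and 0 columns lay outside the series. Replicates of a group differed by 26.5 to 114 times counting noise (chi-square per degree of freedom), so none was the same library sequenced again. This measure cannot tell whether libraries came from the same RNA or culture.

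The analysis ran in edgeR 4.0.16 (R 4.3.3): filterByExpr, TMM scaling and the quasi-likelihood test with robust dispersions over all 6 libraries, with group as the only term and Benjamini-Hochberg adjustment over 13761 genes (threshold 0.05). Standard errors were taken as |log2 fold change| over the root of F. Centred profiles used log2 CPM with a prior count of 2. Identical runs came from blastn 2.17.0 on GENCODE M21 transcripts, from the longest coding transcript of each gene. Of the listed symbols, Mrtfa and Mrtfb appear in the table as Mkl1 and Mkl2, and Cnmd and Snorc were not matched. In 3 simulations from these libraries with 200 of 13761 genes changed, edgeR recovered 26.3% of 2-fold and 73% of 4-fold changes, and 8.31% of its calls were false. Genes named by rule were the 10, up to 3 per direction with the smallest p under 0.05 from each pathway list (wider machinery, non-muscle relatives, SRF regulators), the 5 with the likest profile, and checks of the labels. Other relatives, markers and regulators were named for their roles after their values were seen. The genes and lists were chosen with earlier results of these data known. One gene of the wider machinery list is counted but not reported here by name or drawn.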

Additional observations from a re-analysis of the deposited data

How the results depend on the processing

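The 10 contractile genes had 0 calls at an adjusted p under 0.05 in edgeR and in each alternative run: scaling by library size alone, scaling by DESeq2's factors, limma-voom, the DESeq2 Wald test, no robust estimation, a filter of at least 10 counts in every library, a filter that kept any gene with a count, each library left out, and H3K9M replicate 3 and H3WT replicate 2 both left out. Their smallest adjusted p over these was 0.25. Over all genes, 365 were called by DESeq2 1.42.0, 36 with any gene with a count kept, 302 with those 2 libraries left out and 0 to 91 when 1 library was left out, and the cause was not tested. In the simulations, where genes did not vary together, 26.7% of DESeq2's calls were false. The median log2 fold change of the 10 ran from -0.99 to -0.13 when 1 library was left out. Their calls at an unadjusted p under 0.05 ran from 0 to 2, and were 2 with both libraries left out. The wider machinery had 2 to 13 lower genes at that level when 1 library was left out and 13 with both left out. Ratio pairs without overlap numbered 11 to 27 when 1 library was left out, and 28 of 45 with both left out, where 50.9% of all pairs did not overlap. They were 27 of 45 without H3WT replicate 2 (38.2% of all pairs) and 21 of 45 without H3K9M replicate 1 (26.9%), shares above those of all pairs. The log2 fold change of Tagln turned to 0.0379 and that of Tpm1 to 0.000709 with library size alone, and that of Tagln to 0.00205 with both libraries left out, while with library size alone the median of all genes was 0.05. When 1 library was left out, log2 fold changes ran on both sides of 0 for Tagln (-0.66 to 0.40), Tpm1 (-0.29 to 0.0925), Cald1 (-0.39 to 0.0154) and Actg2 (-0.63 to 0.78). DESeq2 called Des (adjusted p 0.0151) and Itga8 (0.0203), and Ppp1r12a passed in edgeR without H3WT replicate 2 (0.0465) or without both libraries (0.0267). No paired analysis was possible because the groups share only replicate number 1. Depth limits Myh11 most, which had 27 counts in H3K9M replicate 3.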
